A study of Mus musculus with 4 samples.

Results

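Conventional dendritic cells type 2 (cDC2) were examined in mouse liver and liver tumor tissue. The group held 103 cells among 36150 filtered cells, or 0.285% of them (exact binomial 95% interval 0.233 to 0.345). They were picked by counts of unique molecular identifiers (UMIs, counted RNA molecules): at least 1 UMI of Cd209a and Clec10a together, no UMI of Xcr1 or Clec9a, and at least 10 UMIs of the antigen-presentation genes H2-Aa, H2-Ab1, H2-Eb1 and Cd74 together. Cells with a UMI of Cd79a, of a CD3 gene or of Siglech were left out, as were cells with 3 or more UMIs of C1qa, C1qb and C1qc, and each cell needed 500 UMIs, 200 genes and under 20% mitochondrial UMIs. The values of these 16 genes chose the cells and are therefore given only as a description.

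The livers came from mice in which hepatocellular carcinoma (HCC) was induced by a gene, and single cells were sequenced over the course of the disease. There was 1 sample for week 4 (HCC-ES), 1 for week 8 (HCC-MS) and 1 for a last time (HCC-LS), beside 1 from normal liver at week 0 (HCC-NL). The last time is week 10 in the sample's label and week 12 in the series text, and neither the inducing gene nor the strain, sex, age or number of the mice was known. The count matrix joins 4 libraries. Since nothing at hand ties a library to a week, the cells were treated as 1 pooled sample, with no test between weeks. Intervals are 95% intervals and hold counting error alone.

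Conventional dendritic cells take up antigen, cut it into peptides and show these to T cells. Those of type 1 (cDC1) depend on the factors IRF8 and BATF3 and are known for showing antigen to CD8 T cells. Those of type 2 carry SIRPα, depend in large part on IRF4 and are known for showing antigen on MHC class II molecules to CD4 T cells. In mouse liver they sit beside monocytes and the resident macrophages, the Kupffer cells, and share several surface proteins with both.

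The 103 cells came unevenly from the libraries, with 43, 18, 24 and 18 cells in libraries 1 to 4. These were 0.470% (0.340 to 0.632), 0.222% (0.131 to 0.350), 0.236% (0.151 to 0.351) and 0.207% (0.123 to 0.327) of the filtered cells. Library 1 held the largest share, and its interval overlapped those of libraries 2 and 3 but not that of library 4. Among cells with at least 1000 UMIs the shares were 0.690% (0.498 to 0.932), 0.245% (0.146 to 0.388), 0.336% (0.211 to 0.509) and 0.247% (0.146 to 0.390). With that minimum the interval of library 1 overlapped that of library 3 but not those of libraries 2 and 4. Against the cDC1 of the same libraries, taken with the same limits but with a UMI of Xcr1 or Clec9a and none of the lectins, cDC2 made up 43.9% (33.9 to 54.3), 31.0% (19.5 to 44.5), 35.3% (24.1 to 47.8) and 29.5% (18.5 to 42.6) of both types together, and these 4 intervals overlap.

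**Figure D1:**
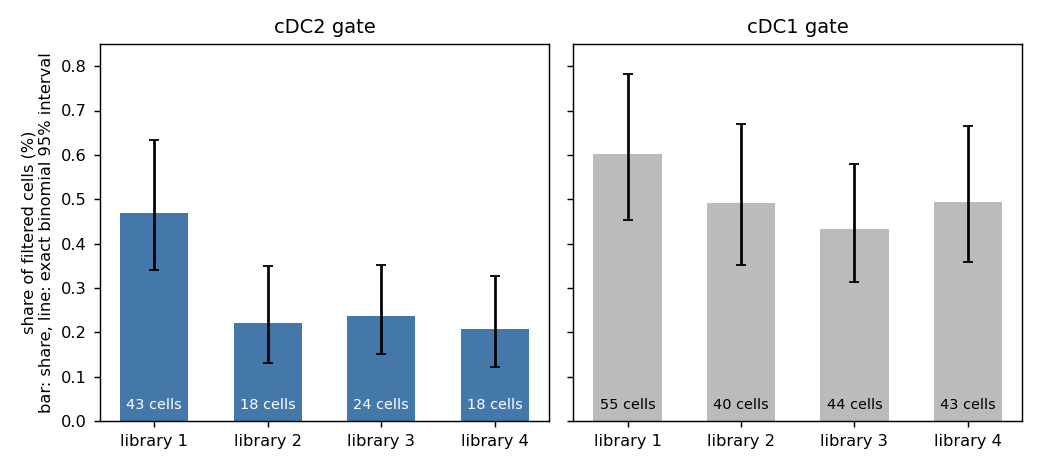
Share of filtered cells in the cDC2 gate (left) and in the cDC1 gate (right) in each of the 4 libraries, with exact binomial 95% intervals and the number of cells in each bar. Library 1 had the largest share of both, 0.470% for cDC2 and 0.601% for cDC1, and the cDC2 shares of libraries 2 to 4 lie between 0.207% and 0.236%.

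The cDC2 held 424207 UMIs in all, with a median of 3680 UMIs (554 to 11127) and 1333 genes per cell. Median depths were 6335 UMIs in 182 cDC1, 3341 in 66 monocytes and 3200 in 1057 C1q macrophages, the 3 groups they are compared with. Of all 38072 barcodes, 1425 occurred in more than 1 library, and 2 of the 103 cDC2 carried such a barcode. Doublet scores from Scrublet were above 0.25 in 4 cDC2, all in library 1.

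Within the group, 34 cells had both lectins, 44 had Cd209a without Clec10a and 25 had Clec10a without Cd209a. Cd209a encodes a C-type lectin of the DC-SIGN family and had 651 counts per 1000000 UMIs (CPM; 576 to 732). Clec10a encodes the galactose-binding lectin MGL1 and had 394 CPM (336 to 458). The 4 class II genes of the rule made up a median of 4.97% of a cell's UMIs, and the cells spread between 0.229% and 10.9%.

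The borders of the rule were drawn through low counts. With 1 lectin UMI there were 40 members, and 444 cells that met every other condition had none. With 10 to 19 class II UMIs there were 8 members, and 7 cells with 5 to 9 were just outside. With 1 or 2 C1q UMIs there were 15 members, and 4 cells with 3 or 4 were just outside. Siglech, a marker of plasmacytoid dendritic cells, kept out 107 cells that met the other conditions, and those cells had 2497 CPM of Ly6c2 and 1869 CPM of Irf8.

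**Figure D2:**
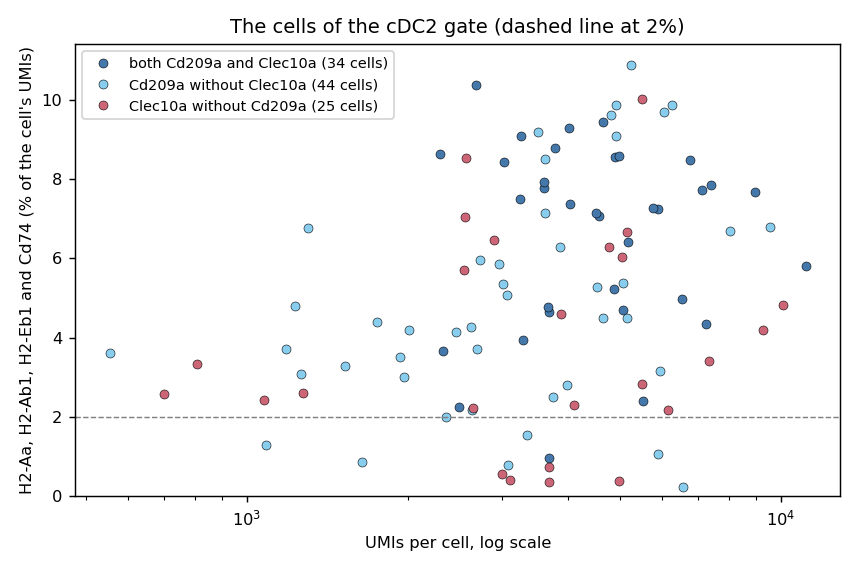
Each point is 1 of the 103 cells of the cDC2 gate, placed by its UMIs (log scale) and by the percent of its UMIs from the 4 class II genes of the rule, and coloured by the lectins found. Most cells lie above the dashed line at 2%, and 13 lie below it.

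The label was set beside 12 dendritic cell markers that the rule did not use, and 97 of the 103 cells had at least 1 of them, 84 at least 2 and 65 at least 3. A single UMI of such markers is weak evidence: at least 1 of the 8 markers shared by both conventional types was found in 89 of 103 cDC2 (86.4%, median 3680 UMIs), against 28 of the 51 cells kept out by 5 or more C1q UMIs (54.9%, median 5451 UMIs) and 48 of the 107 kept out by Siglech (44.9%, median 2908 UMIs). These 8 markers, among them Flt3, Zbtb46, Itgax and Ciita, summed to 957 CPM in cDC2, against 1115 CPM in cDC1, 134 CPM in monocytes and 222 CPM in C1q macrophages. The sum in cDC2 was near that of cDC1 and above that of the other 2 groups, but single markers differed between the 2 types. Flt3, Batf3 and Cd24a (54.2 against 286 CPM) were more than 2-fold lower in cDC2 than in cDC1, and H2-DMb2 (233 against 60.5 CPM) was higher. Ciita (146 CPM in cDC2) and H2-DMb2 belong to class II presentation. Class II UMIs were required of cDC2 and cDC1 alone, so the gap to the other 2 groups is not independent of how the cells were chosen. Zbtb46, a factor largely restricted to conventional dendritic cells among myeloid cells, had 77.8 CPM (53.5 to 109) in cDC2 and 1.69 CPM (0.732 to 3.34) in C1q macrophages. Irf4 had 10 UMIs in 9 cells, 23.6 CPM (11.3 to 43.4), which was too few for a comparison.

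Markers of other cells were looked for in the same way. Of the B and plasma cell markers, Ighm had 26 UMIs and Cd79b 4 in cDC2, while Cd79a (a gene of the rule), Ms4a1, Pax5, Igkc and Jchain were at 0. All 5 basophil and mast cell markers were at 0. The 8 macrophage and Kupffer markers summed to 37.7 CPM in cDC2, against 7539 CPM in C1q macrophages. The 8 T and NK cell markers summed to 9.43 CPM in cDC2, with Cd3e at 0 by the rule. The 8 monocyte markers summed to 514 CPM, against 4705 CPM in monocytes. Some markers of each list helped to choose the macrophages and monocytes (C1qa and Adgre1, and Ly6c2, Ccr2 and Csf1r), so those sums are a description. The 8 plasmacytoid markers summed to 561 CPM in cDC2, in 73 of 103 cells and with Siglech at 0 by the rule, against 365 CPM in cDC1 and 561 CPM in all other cells. The 6 endothelial markers summed to 283 CPM in cDC2, in 56 of 103 cells, against 306 CPM in all other cells. The 10 hepatocyte markers summed to 4062 CPM over all cDC2, and to 1910, 5547, 7329 and 3464 CPM in libraries 1 to 4, against 28580 CPM in all other cells. Hepatocyte RNA was thus found in the cDC2 of every library at a level below that of all other cells together. The part of these markers in the results below was not tested.

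The 13 cells with under 2% class II UMIs differed from the other 90 in genes outside the rule. They had 0 UMIs of Itgax and Mgl2 and 1 UMI of H2-Oa, against 225 CPM, 301 CPM and 354 CPM in the other 90. Their 8 plasmacytoid markers summed to 2061 CPM (1668 to 2520), against 378 CPM (319 to 446), and Ly6c2 was at 694 CPM (475 to 980), against 68.8 CPM (44.9 to 101). Their hepatocyte markers summed to 14190 CPM, against 2827 CPM. Flt3 was at 130 CPM (47.8 to 283), against 52.9 CPM (32.3 to 81.7), and the 8 shared markers of conventional dendritic cells summed to 673 CPM (457 to 955), against 992 CPM (894 to 1097). These markers point both ways and do not settle what the 13 cells are. The 13 cells are kept in all values below unless stated.

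The lectin groups also differed. Cells with Clec10a alone had 3198 CPM (2860 to 3564) of Lyz2, a lysozyme gene of monocytes and macrophages, against 422 CPM (328 to 534) in cells with both lectins and 272 CPM (197 to 366) in cells with Cd209a alone. Ly6c2, a monocyte and plasmacytoid cell gene, was at 372, 6.11 and 120 CPM in the same order, and the monocyte marker sum at 919, 354 and 417 CPM. Mgl2 was at 58.7 CPM (21.5 to 128) with Clec10a alone, 385 CPM (296 to 493) with both and 284 CPM (207 to 380) with Cd209a alone. Flt3, the receptor for the growth factor of dendritic cells, had 1, 11 and 14 UMIs in these groups. Lyz2 was not found in a larger share of the cells with Clec10a alone: it was in 11 of 25 with Clec10a alone (44.0%), 20 of 34 with both (58.8%) and 19 of 44 with Cd209a alone (43.2%), and 1 cell with Clec10a alone held 128 UMIs. Csf1r, a monocyte and macrophage receptor, had overlapping intervals (48.9, 61.1 and 56.8 CPM), and the class II loading gene H2-Oa likewise (225, 342 and 354 CPM).

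Against all other filtered cells, the 10 genes with the largest ratio among those with 100 or more UMIs in cDC2 were Mgl2, Tnfsf9, S100a4, Napsa, Ifitm6, H2-Oa, H2-DMb1, H2-DMa, Alox5ap and Lsp1. They describe the group that the rule picked, and some were not higher in cDC2 than in monocytes, as given below. Mgl2 encodes MGL2 (CD301b), a second galactose-binding lectin and a known cDC2 marker. It had 269 CPM (222 to 323) in cDC2 and 0.687 CPM (0.549 to 0.848) in other cells, a 391-fold ratio (293 to 524). It was found in 22 of 103 cDC2 (21.4%) and 6 of 1057 C1q macrophages (0.568%), groups of similar depth, and 15 of those 22 cDC2 also had Clec10a. Mgl2 and Clec10a are close paralogs, so part of either count may belong to the other.

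Tnfsf9 encodes 4-1BB ligand, a costimulatory protein for T cells, and Napsa an aspartic protease. Tnfsf9 had 811 CPM (727 to 901) in cDC2 and 9.82 CPM in other cells, and was found in 54 cDC2 (52.4%) and in 8.51% of C1q macrophages. Napsa had 868 CPM (781 to 961) in cDC2 and 27.9 CPM in other cells, and was found in 77 cDC2 (74.8%) and in 3.78% of C1q macrophages. Both genes were spread over many cells, since the highest cell held 7.85% of the Tnfsf9 and 5.43% of the Napsa UMIs.

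Genes of class II peptide loading outside the rule were among these leading genes. H2-DMa and H2-DMb1 encode the chains of H2-DM, which puts peptide onto class II molecules, H2-Oa and H2-Ob encode H2-O, which restrains H2-DM, and Ciita encodes the coactivator that class II genes need. H2-DMa had 717 CPM (638 to 802), H2-DMb1 549 CPM (481 to 625) and its paralog H2-DMb2 233 CPM (190 to 284). H2-Oa had 318 CPM (267 to 377), H2-Ob 123 CPM (91.5 to 161) and Ciita 146 CPM (112 to 187). Because H2-DMb1 and H2-DMb2 are near copies, their split is uncertain. With every cell thinned to 1000 UMIs, H2-Oa was seen in 21.0% of 100 cDC2, 11.8% of 178 cDC1, 0% of 66 monocytes and 0.198% of 1011 C1q macrophages.

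**Figure D3:**
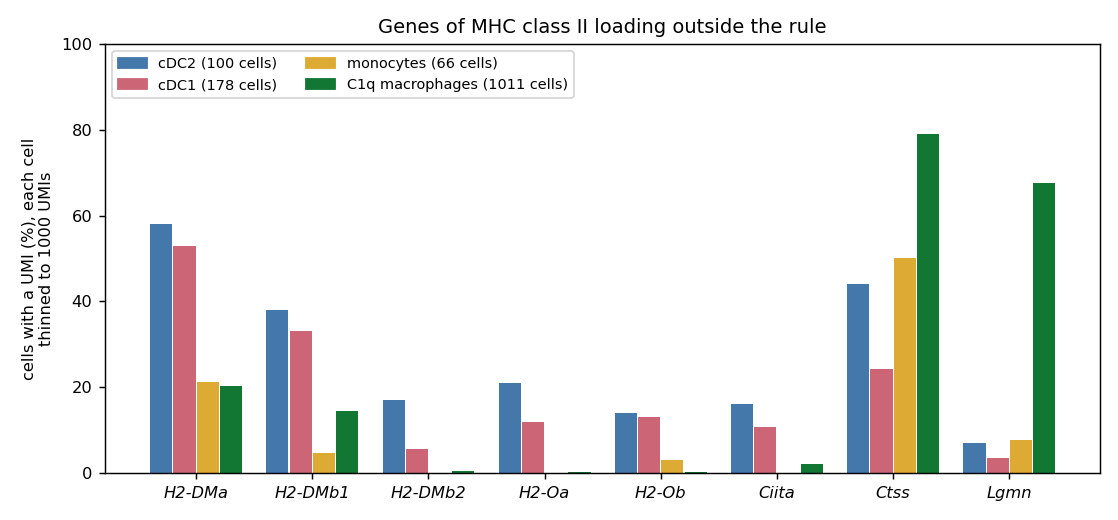
Percent of cells with a UMI of 8 genes of class II loading outside the rule, after each cell was thinned to 1000 UMIs, in cDC2, cDC1, monocytes and C1q macrophages. H2-Oa, H2-Ob, H2-DMb2 and Ciita were seen in 14.0% to 21.0% of cDC2 and in at most 3.03% of monocytes and C1q macrophages, while Ctss and Lgmn were seen most often in C1q macrophages (79.1% and 67.7%).

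Promoters of 4 of these genes are shown because class II genes are known to share a promoter module, the X and Y boxes, through which the CIITA coactivator acts. Each window, from RefSeq on GRCm38.p6, holds 250 bases before and 50 after the gene's start on the plus strand, 5′ to 3′. Capitals mark AGNAAC, the core of the X box, and ATTGG, the Y box (an inverted CCAAT). The windows are chr17:34092129-34092428 for H2-Oa, chr17:34238655-34238954 for H2-Ob, chr17:34152941-34153240 for H2-DMb1 and chr17:34144999-34145298 for H2-DMb2.
H2-Oa: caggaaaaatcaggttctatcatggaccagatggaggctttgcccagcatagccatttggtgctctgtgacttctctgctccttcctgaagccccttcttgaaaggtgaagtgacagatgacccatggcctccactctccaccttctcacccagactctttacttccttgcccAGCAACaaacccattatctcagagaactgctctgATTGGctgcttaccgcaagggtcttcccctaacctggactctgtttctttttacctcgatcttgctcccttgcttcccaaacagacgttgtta
H2-Ob: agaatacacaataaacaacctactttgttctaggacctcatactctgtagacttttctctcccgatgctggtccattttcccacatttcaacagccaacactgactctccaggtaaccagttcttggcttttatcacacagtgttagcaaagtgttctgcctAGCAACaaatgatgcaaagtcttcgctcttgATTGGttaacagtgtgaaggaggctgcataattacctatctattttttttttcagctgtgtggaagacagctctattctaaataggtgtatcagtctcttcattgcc
H2-DMb1: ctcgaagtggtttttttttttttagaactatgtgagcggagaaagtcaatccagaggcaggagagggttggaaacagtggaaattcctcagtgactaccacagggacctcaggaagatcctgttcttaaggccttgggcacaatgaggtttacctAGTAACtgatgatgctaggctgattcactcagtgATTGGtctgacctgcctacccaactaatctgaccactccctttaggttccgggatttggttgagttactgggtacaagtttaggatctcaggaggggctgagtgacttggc
H2-DMb2: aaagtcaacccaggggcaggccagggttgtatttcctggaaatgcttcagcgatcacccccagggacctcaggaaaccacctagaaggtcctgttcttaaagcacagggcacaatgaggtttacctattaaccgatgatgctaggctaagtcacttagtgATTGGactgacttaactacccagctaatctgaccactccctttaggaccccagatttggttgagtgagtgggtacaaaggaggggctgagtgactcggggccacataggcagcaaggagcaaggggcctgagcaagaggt

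Both motifs in this order with 25 to 29 bases between them, on either strand, occurred in 84 of 32851 RefSeq promoter windows (0.256%). They occurred in H2-Oa, H2-Ob and H2-DMb1 of the windows shown and also in H2-Eb2. Alone, AGNAAC was in 48.1% and ATTGG in 37.4% of all windows, both strands searched. H2-DMb2 held ATTGG and no AGNAAC in this window. The spacing was chosen after the sequences were seen, and 9 genes of the 12-name class II list had a window in the table. A match is a description of these letters.

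The question whether the 2 conventional types differ beyond the genes that define them was addressed by setting cDC2 against cDC1. The cDC2 were higher in Mgl2, Tnfsf9, the inflammatory cytokine Il1b, the calcium-binding proteins S100a4 and S100a6 and the Fc receptor subunit Fcer1g. They were lower in Irf8, the factor that cDC1 depend on, and in the cDC1 genes Tlr3, Cadm1 and Naaa. A gene was counted as higher or lower where the ratio of CPM was at least 2, its interval excluded 1, and the direction was the same in libraries 1 and 3, which held at least 20 cells of both types. Of 2018 genes with at least 100 UMIs over both types, 120 (5.95%) were higher and 102 (5.05%) lower in cDC2, 222 (11%) in all, and the median log2 ratio of all 2018 was -0.09. There were no replicates and no test, so these counts state size only.

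Mgl2 in libraries 1 to 4 was at 180, 492, 394 and 110 CPM in cDC2 and at 0, 0, 0 and 3.10 CPM in cDC1. It had 114 UMIs in cDC2 against 1 in cDC1, a 329-fold ratio with a wide interval (57.8 to 13095). All 4 libraries of cDC2 were above all 4 of cDC1, which had been chosen to lack Cd209a and Clec10a. The 4 cells with a lectin and with Xcr1 or Clec9a, which were in neither group, held 10 Mgl2 UMIs in 2 cells, 330 CPM (158 to 607), so the ratio depends on how such cells are placed.

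Tnfsf9 was at 346, 949, 1084 and 1195 CPM in cDC2 and at 6.69, 6.38, 10.4 and 9.29 CPM in cDC1. Libraries of the 2 types did not overlap, and cDC2 were 99.2-fold higher (53.3 to 209). Il1b was at 1346, 2779, 2353 and 1747 CPM in cDC2 and at 134, 73.3, 76.4 and 192 CPM in cDC1, 16-fold higher (13.4 to 19.3), again with no overlap. Of the 54 cDC2 with Tnfsf9, 40 also had Il1b.

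Irf8 was at 103, 22.9, 37.0 and 60.2 CPM in cDC2 and at 1111, 1065, 1066 and 1292 CPM in cDC1. It was 17.9-fold lower in cDC2 (12.2 to 27.2) and was found in 16 of 103 cDC2 and 177 of 182 cDC1, and 8 of its 27 UMIs in cDC2 lay in 1 cell. Of the 17 factors on the dendritic cell list, 7 were measured, and 4 were lower in cDC2 and none higher. Id2, which cDC1 development needs, was 4.01-fold lower (2.99 to 5.48), Flt3 2.43-fold lower (1.60 to 3.82) and Batf3 2.14-fold lower (1.58 to 2.93). Flt3 fell short of the 2-fold limit with Cd209a required (log2 ratio -0.94) and with cells thinned to 500 UMIs (-0.32), and Batf3 without library 1 (-0.96) and with the same thinning (-0.76). Zeb2, a factor linked to the myeloid and cDC2 side, was at 113 CPM in cDC2 and 6.54 CPM in cDC1, with 56 UMIs in all and so under the minimum.

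Sirpa, the inhibitory receptor SIRPα that marks cDC2, was also under the minimum, with 56 UMIs in cDC2 and 6 in cDC1. By library it was at 141, 126, 123 and 131 CPM in cDC2 and at 6.69, 12.8, 0 and 0 CPM in cDC1, so all 4 libraries of cDC2 were above those of cDC1. Itgax, which encodes CD11c, was steady over the libraries of cDC2 at 205, 194, 197 and 201 CPM and stood at 77.0, 92.5, 139 and 124 CPM in cDC1. Its ratio of 0.89 on the log2 scale was below the 2-fold limit.

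Of the class II loading list, 8 of 10 genes in the matrix were measured, 2 were higher in cDC2 and none lower, with a median log2 ratio of 0.14. H2-DMb2 was 3.86-fold higher (2.83 to 5.29) and the peptide-cutting protease Ctss 2.51-fold higher (2.15 to 2.93). H2-DMa and H2-DMb1 were level, with log2 ratios of 0.06 (-0.13 to 0.25) and 0.00 (-0.23 to 0.21). H2-Oa was at 205, 355, 246 and 522 CPM in cDC2 and at 214, 128, 135 and 86.7 CPM in cDC1. It was higher in cDC2 in 3 of 4 libraries but not in library 1, and so did not meet the library condition. Of 9 measured genes of class I presentation, Psmb9, a subunit of the immunoproteasome, and Tap2, a chain of the peptide transporter, were lower in cDC2 and none higher. Tap2 was near the 2-fold limit (log2 ratio -1.01) and fell short of it in 7 of 15 alternatives, among them without library 2 (-0.79) and without library 3 (-0.89).

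Costimulation and maturation genes were mixed. Of 5 measured costimulation and checkpoint genes, Tnfsf9 and Cd83 (2.32-fold, 1.95 to 2.76) were higher in cDC2 and Cd86 was lower (2.94-fold, 1.71 to 5.40), though short of the 2-fold limit at equal library weight (log2 ratio -0.75). Without library 4, Cd83 was just short of the 2-fold limit (log2 ratio 1.00). Cd83 encodes a maturation protein that stabilises class II molecules and CD86 a ligand of CD28. Of 3 measured maturation genes, Traf1, a signalling adaptor of the TNF receptor family, was 2.15-fold higher (1.64 to 2.80). Ccr7, the receptor that leads mature dendritic cells to lymph nodes, was level (70.7 CPM in cDC2 and 68.7 CPM in cDC1).

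Secreted signals and Fc receptors were more often higher. Of 3 measured cytokines, Il1b and Tnf were higher in cDC2, and Tnf stood at 64.1, 606, 505 and 131 CPM in cDC2 and at 23.4, 57.4, 20.8 and 24.8 CPM in cDC1. Of 6 measured chemokines, Ccl4 (9.70-fold), Ccl6 (7.59-fold) and Cxcl2 (2.78-fold) were higher and none lower, and Cxcl2 was found in 7 cDC2, with 39.5% of its UMIs in 1 cell. The log2 ratio of Cxcl2 was 0.82 with 2 lectin UMIs or with Cd209a required and 0.95 without library 2, and it was -4.14 within library 4. Fcer1g, the shared signalling chain of Fc receptors, was 8.33-fold higher (7.34 to 9.48) and the inhibitory receptor Fcgr2b 3.44-fold higher (2.49 to 4.78), of 3 Fc receptor genes measured.

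Genes of the immediate-early and stress list were also read. Of 11 measured, 7 were higher in cDC2 and none lower, with a median log2 ratio of 1.73. Atf3 was 8.45-fold, Nfkbia 5.66-fold, Zfp36 4.82-fold and Junb 3.96-fold higher, and Zfp36 stood at 1385, 4483, 2537 and 7771 CPM in cDC2 and at 338, 1075, 392 and 1233 CPM in cDC1. Such genes can be switched on while tissue is digested, and the part of digestion in the cytokine and chemokine values was not tested.

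Lists named for subsets of cDC2 were read as well. Of 8 genes linked to the inflammatory subset cDC2B, 6 were measured and 4 were higher in cDC2 than in cDC1 (Mgl2, Tmem176a, Tmem176b and Lyz2). Tmem176b and Tmem176a, which encode paired ion channels of the endosomal system, were 11.3-fold and 7.91-fold higher. Lyz2 was 2.30-fold higher (2.03 to 2.61), and 327 of its 439 UMIs lay in cells with Clec10a alone. With Cd209a required, the log2 ratio of Lyz2 was -0.37, and it was 0.97 without library 1, 0.95 without library 2 and 0.92 without its highest cell, short of the 2-fold limit in each. Of the 7 genes linked to the subset cDC2A, only Jaml was measured and it was lower, while Esam had 5 UMIs, Tbx21 1 and Dtx1 none in cDC2.

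**Figure D4:**
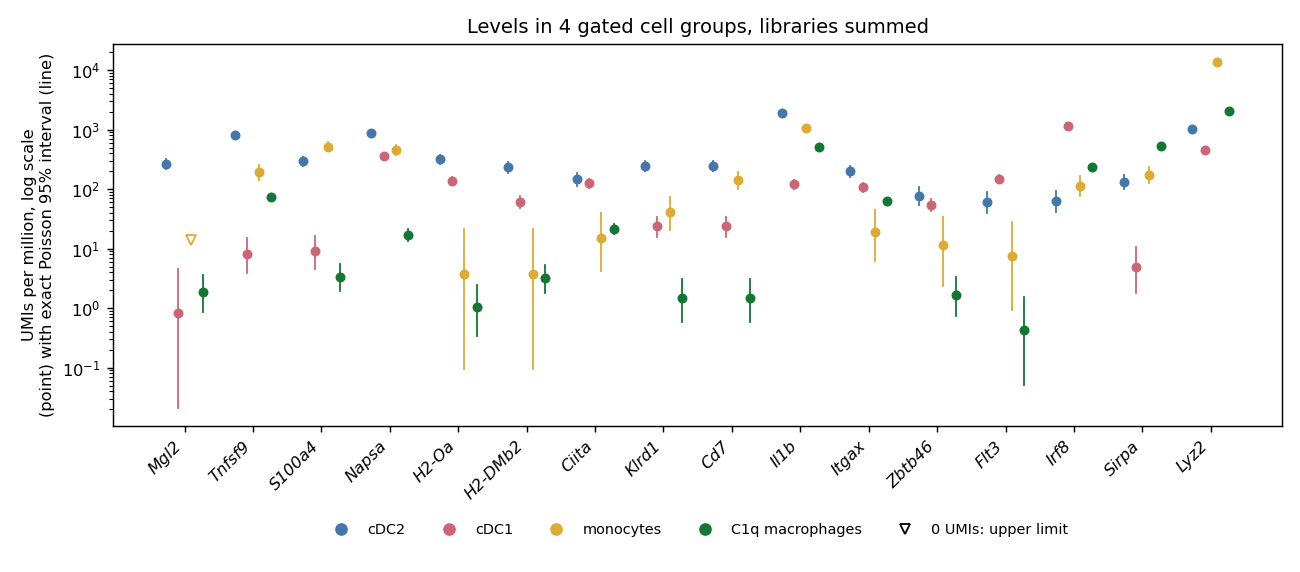
Levels of 16 genes in CPM (log scale) with exact Poisson 95% intervals in cDC2, cDC1, monocytes and C1q macrophages, libraries summed. Mgl2, Tnfsf9, Klrd1 and Cd7 are highest in cDC2, Irf8 and Flt3 in cDC1 and Lyz2 in monocytes. In library 1, Cd7 was higher in monocytes than in cDC2 (216 against 147 CPM). An open triangle marks the upper limit where no UMI was found.

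Monocytes were the second comparison, since they can take on features of dendritic cells in tissue. The 66 monocytes had at least 2 UMIs of Ly6c2 and Ccr2, at least 1 of Csf1r and none of the lectins, of Xcr1 or Clec9a or of 6 granulocyte and progenitor genes. They shared the limits on C1q, Siglech and B and T cell genes, with no limit on class II genes. The cDC2 were higher in class II loading genes, Mgl2, Tnfsf9, Cd83 and the cell-cycle regulator Ccnd1, and lower in Lyz2, Cebpb, Cd14, Chil3, Thbs1 and F13a1. Of 883 genes measured, 33 (3.74%) were higher and 71 (8.04%) lower in cDC2, 104 (11.8%) in all, with a median log2 ratio over all of -0.08. Library 3 alone had 20 cells of both groups, so the library condition rests on it. In library 1, Cd83 was not higher in cDC2 (212 CPM, against 236 CPM in monocytes).

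Of 5 measured class II loading genes 4 were higher in cDC2 and none lower, with a median log2 ratio of 2.04. Class II UMIs were required of cDC2 and not of monocytes, so these genes are not independent of how the cells were chosen. H2-Oa had 135 UMIs in cDC2 and 1 in monocytes, and H2-DMb2 99 and 1, ratios of 83.3 (14.7 to 3313) and 61.1 (10.7 to 2436). H2-DMb1 was 4.11-fold (2.87 to 6.04) and H2-DMa 2.98-fold higher (2.26 to 3.97), and by library H2-DMb1 was at 500, 560, 320 and 803 CPM in cDC2 and at 19.6, 253, 96.9 and 141 CPM in monocytes. All 4 libraries of cDC2 were above all 4 of monocytes for H2-DMb1. Mgl2 had no UMI in monocytes and was at least 23.4-fold higher in cDC2, taking 3 counts over the group as the floor.

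Tnfsf9 was 4.24-fold higher in cDC2 (3.15 to 5.83), but by library it was at 0, 279, 312 and 0 CPM in monocytes. Klrd1, which encodes the CD94 receptor chain known from NK cells, was 5.83-fold higher (3.13 to 12.0) and was found in 47 of 103 cDC2. NK and T cell markers were near 0 in cDC2, as given above, but the rule itself left out cells with a UMI of a CD3 gene. Ccnd1 was 6.21-fold higher (3.58 to 11.7) and Cd9, a tetraspanin, 6.31-fold higher (3.18 to 14.2). Without library 1, 29 genes were higher and 53 lower, but the set of genes measured changed as well.

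Among the genes with the largest ratios, Lyz2 stood at 1641, 1487, 320 and 271 CPM in cDC2 and at 21770, 11493, 13221 and 8603 CPM in monocytes, 13.2-fold lower in cDC2 (11.9 to 14.6). Cebpb, a factor of the monocyte lineage, was 14.4-fold lower (11.8 to 17.6) and Zeb2 3.24-fold lower (2.27 to 4.69). Cd14, the endotoxin co-receptor, was 16.8-fold lower (9.52 to 32.4), but its log2 ratio was -0.0008 in library 4. Chil3, a chitinase-like secreted protein, had 4 UMIs, all in 1 cDC2, against 291 in monocytes. Thbs1, an adhesive glycoprotein, had none against 117, at least 63.2-fold lower. Of the leading genes named earlier, Ifitm6 was lower in cDC2 than in monocytes (log2 ratio -1.06, -1.43 to -0.70). S100a4 (-0.83) and Alox5ap (-0.60) leaned the same way and Napsa (0.93) and Lsp1 (0.57) the other way. The remaining leading genes were higher in cDC2. S100a6 was lower in cDC2 as well (-1.10).

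Inflammatory signals were set against those of monocytes as well. Of 3 measured cytokines none was counted in either direction, and Il1b was at a log2 ratio of 0.87 (0.67 to 1.07) and Tnf at -0.40 (-0.80 to 0.01). Of 6 measured chemokines 4 were lower in cDC2 and none higher. Cxcl2 was 7.03-fold lower (5.50 to 9.06), and lower in all 4 libraries. Ccl5 (3.55-fold lower) and Cxcl10 (2.79-fold lower) rested on some libraries only, since in library 4 their log2 ratios were 4.13 and 0.36. With libraries at equal weight Ccl5 (log2 ratio -0.41), Ccl6 (-0.96) and, by less than 0.01, Cxcl10 were short of the 2-fold limit. Without library 1, Ccl5 was at -0.07, with too few UMIs to count, and Ccl6 at -0.87. Of 11 measured immediate-early and stress genes 1 was lower (Fos) and none higher, and the median was -0.06. Without library 1, Fos was at -0.95 and so within 2-fold. Whether the difference between the 2 comparisons is larger than the spread between animals was not tested, and both share the same cDC2.

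C1q macrophages, which include the Kupffer cells, were the last comparison. They had at least 10 C1q UMIs, a UMI of Csf1r or Adgre1 and none of Xcr1, Clec9a, Siglech or the B and T cell genes, with no limit on the lectins or class II genes. The cDC2 were higher in class II loading genes, Cd7, Klrd1, Mgl2, S100a4, Napsa and Ccr2, and lower in Kupffer genes (Cd5l, Clec4f, Slc40a1), in the proteases Ctsd and Lgmn and in Apoe, Lpl and Trem2 of the lipid-associated list. Of 5833 genes measured, 249 (4.27%) were higher and 932 (16%) lower in cDC2, 1181 (20.2%) in all, with a median log2 ratio over all of -0.28. Without library 2, which held 500 of the 1057 macrophages, 145 were higher and 606 lower, but the set of genes measured changed as well.

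Of 8 measured class II loading genes 5 were higher in cDC2 and 2 lower. H2-Oa was at 205, 355, 246 and 522 CPM in cDC2 and at 0, 1.70, 0 and 0 CPM in macrophages, 300-fold higher (126 to 940). H2-DMb2 was 73.5-fold (42.4 to 136), Ciita 6.83-fold (4.90 to 9.46), H2-DMa 3.34-fold (2.93 to 3.80) and H2-DMb1 3.16-fold higher (2.72 to 3.66). Here too class II UMIs were required of cDC2 alone. Lgmn, which encodes the lysosomal protease legumain, stood at 83.3, 68.6, 73.9 and 80.3 CPM in cDC2 and at 1087, 1290, 1302 and 1223 CPM in macrophages, and was 16-fold lower in cDC2 (11.4 to 23.3). No library of the 2 groups overlapped for H2-Oa or Lgmn.

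Surface and adhesion genes higher in cDC2 were Cd7 (167-fold, 78.2 to 425), Klrd1 (165-fold, 77.5 to 421), Itgax (3.22-fold, 2.5 to 4.11) and the integrin chain Itga4 (2.74-fold, 2.03 to 3.64). At equal library weight Itga4 was short of the 2-fold limit (log2 ratio 0.83), and with 20 class II UMIs required it no longer met the conditions. Cd7, an immunoglobulin-family receptor, stood at 147, 206, 135 and 532 CPM in cDC2 and at 0, 2.37, 0 and 0 CPM in macrophages. In cDC1 it was at 0, 0, 97.2 and 3.10 CPM, where 96.6% of its UMIs lay in 1 cell. Monocytes had Cd7 at 216, 200, 53.8 and 141 CPM, above cDC2 in library 1 and close to it in library 2. Ccr2, the receptor that draws monocytes into tissue, was 8.73-fold higher in cDC2 than in macrophages (5.93 to 12.8), and Traf1 15.3-fold higher (11.2 to 21.0). Cbfa2t3, a corepressor, was 41.1-fold higher (27.0 to 64.2). Sirpa was 3.97-fold lower in cDC2 than in macrophages (3.05 to 5.27) and Zeb2 2.55-fold lower (1.91 to 3.48). Without library 1, Zeb2 no longer met the conditions.

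Innate sensors and cytokines were more often lower. Of 10 measured pattern receptors 7 were lower in cDC2 and none higher, among them Tlr7, Tlr8, Tlr13, Nod1 and Cd14, although several had 1 to 3 UMIs in cDC2. Of 9 measured cytokines 5 were lower, among them Il10 and Il1a with no UMI in cDC2, and Il1b was 3.79-fold higher (3.50 to 4.11). Il1b stood at 1346, 2779, 2353 and 1747 CPM in cDC2 and at 949, 406, 826 and 330 CPM in macrophages, and the libraries did not overlap. Of 12 measured chemokines 6 were lower and none higher, and of 6 Fc receptor genes Fcgr1, Fcgr3 and Fcgr4 were lower.

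Of the 11 lipid-associated genes, all measured, 7 were lower in cDC2 and none higher, with a median log2 ratio of -4.19 (-4.14 with genes at 0 UMIs set to their bound). Apoe, the lipid carrier, was 27.9-fold lower (25.2 to 31.0) and the lipase Lpl 47.1-fold lower (22.8 to 117). Trem2, Gpnmb and Msr1 had no UMI in cDC2, against 1231, 826 and 587 in macrophages. Apoe is also made by hepatocytes and was found in 57 of 103 cDC2. The immediate-early and stress list was near level here, with 2 of 12 genes higher, 1 lower and a median of 0.37.

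Several activation genes differed between the libraries of cDC2. Library 1 had the lowest Tnfsf9, Cd83 (212, against 629, 604 and 984 CPM in libraries 2 to 4), Traf1 (96.2, against 252, 271 and 402 CPM) and Nfkbia (859, against 2024, 1934 and 2631 CPM). Libraries 2 and 3 had the highest Il1b, Ccl4, Tnf and Isg15, an interferon-induced gene that stood at 224, 1315, 1109 and 351 CPM. Single cells held a large part of some of these. For Isg15, 1 cell held 66 of the 275 UMIs, and for Tnf 1 cell held 31 of 117. For Ccl4, 1 cell of library 2 held 185 of that library's 420 UMIs. Itgax and Sirpa lay within narrow ranges, as given above, and H2-Ob stood at 128, 103, 123 and 131 CPM. Library, sample and time cannot be told apart here.

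Other cell types of the same libraries showed some of these patterns. Zfp36 was lower in libraries 1 and 3 than in 2 and 4 in cDC2, in cDC1 and in macrophages (1056, 1801, 1075 and 1464 CPM). S100a4 was highest in libraries 1 and 3 in cDC2 (526, 68.6, 345 and 80.3 CPM), in monocytes (942, 160, 678 and 305 CPM) and in macrophages (9.03, 1.36, 10.8 and 2.78 CPM). Tnfsf9 in macrophages was also lowest in library 1 (11.6, 97.3, 68.5 and 48.7 CPM). In cDC1, Cd83 (110, 328, 188 and 316 CPM) and Traf1 (20.1, 115, 111 and 183 CPM) were lowest in library 1. Nfkbia in cDC1 was lowest there as well (144, 408, 191 and 452 CPM). Il1b (687, 1463, 1281 and 305 CPM) and Ccl4 (667, 2301, 1701 and 703 CPM) of monocytes were highest in libraries 2 and 3. Cd83, Tnf and Isg15 of monocytes were highest in library 1 instead. The part of the library in these values was not tested.

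**Figure D5:**
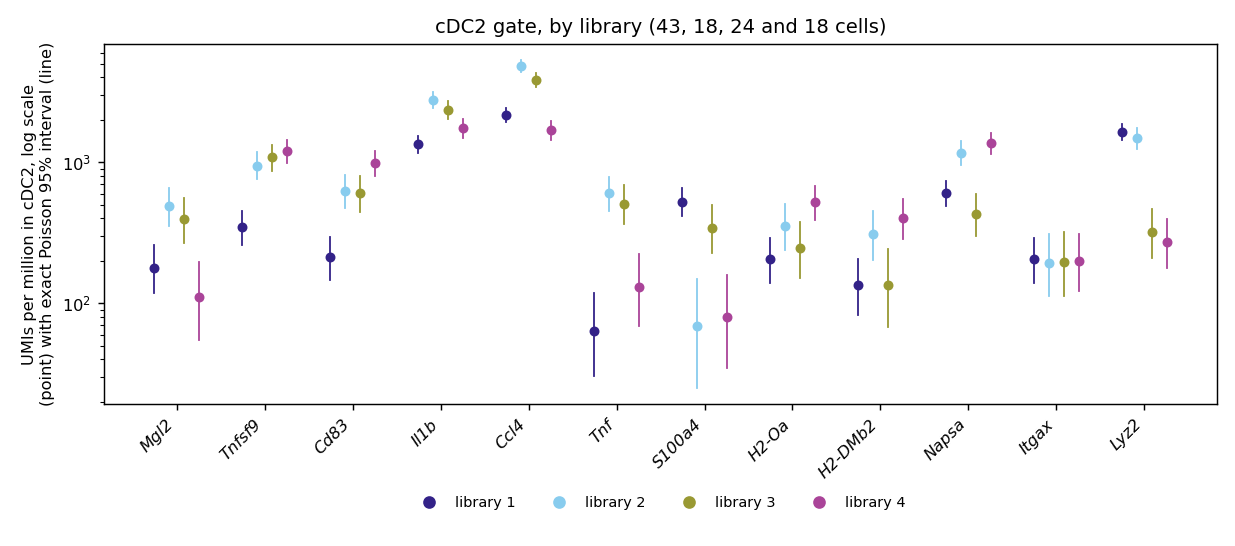
Levels of 12 genes in the cDC2 of each library, in CPM (log scale) with exact Poisson 95% intervals. Library 1 is lowest for Tnfsf9 and Cd83, libraries 2 and 3 are highest for Tnf, and the 4 libraries lie together for Itgax. A single cell held 31 of the 117 Tnf UMIs.

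Few cDC2 carried the chemokine and migration genes of mature dendritic cells. Ccr7 had 30 UMIs in 6 cells, Ccl22 34 UMIs in 8 cells and Ccl17 68 UMIs in 7 cells, while Cacnb3 and Nudt17 had none. A single cell held 51 of the Ccl17 UMIs, and 1 cell each held 55.9% of the Ccl22 and 56.7% of the Ccr7 UMIs. Ccl17 and Ccl22, ligands of CCR4, were found together in 5 cells. The 8 mature dendritic cell markers summed to 167, 172, 702 and 251 CPM in libraries 1 to 4 of cDC2, highest in library 3. Il12b, the p40 chain of interleukin 12, had no UMI in cDC2, which allows up to 2.91% of cells with a UMI, taking 3 counts as the limit.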

How the data were processed

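Livers were digested, strained and cleared of red cells, and 10x Genomics 3′ chemistry of version 3 was used, per the labels' protocols. The authors deposited raw UMI counts, and per the file headers Cell Ranger 6.0.1 made the matrix. The build is mm9, per the submitters' processing notes, and no source used here names the annotation. Promoters come from RefSeq on GRCm38.p6, another build, and were matched by symbol. The matrix holds 31053 genes, of which 30934 matched a gene name table by identifier.

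Barcode suffixes 1 to 4 are called libraries. Doublets were scored within each library with Scrublet in scanpy 1.11.5 at an expected rate of 8%. Its automatic thresholds marked 519, 0, 263 and 0 cells, so a score above 0.25 was used as an alternative, and doublets were kept otherwise. Counts summed over each cell group were turned into CPM with exact Poisson intervals. Shares have Clopper-Pearson intervals and ratios exact conditional binomial intervals (Python 3.11.15, numpy 2.4.6, scipy 1.17.1, pandas 2.3.3). Genes of either rule entered no comparison. The code was tested on simulated data. The text names, in each comparison, up to 5 counted members a list and the 10 genes with the largest bound of the ratio in each direction. Members and lists were chosen with earlier results of these data known. PCR duplicates are removed by UMIs, and intervals cover counting error only.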

Additional observations from a re-analysis of the deposited data

How the results depend on the processing

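No paired analysis was possible because each time has 1 sample and no source pairs libraries with samples. The share of cDC2, 0.285%, was 0.174% with 2 lectin UMIs required, 0.216% with Cd209a required and 0.367% among cells with 1000 UMIs, and leaving out 1 library gave 0.222% (without library 1) to 0.310%. The number of genes counted against cDC1, monocytes and macrophages was 222, 104 and 1181. It was 770 and 538 against cDC1 and monocytes with a minimum of 20 UMIs in place of 100, and 17, 8 and 216 with each cell thinned to 500 UMIs, where fewer genes reach the minimum. Leaving out 1 library gave 170 to 220, 77 to 87 and 751 to 1181. The number of genes measured changes with the minimum and with the libraries kept, so these counts are not of the same set of genes. Without library 3 no library held 20 cDC2 and 20 monocytes, so the library condition then had no effect. The remaining alternatives, on class II UMIs, C1q, mitochondrial share, doublets and equal library weight, and 2 chosen after seeing the data (without the highest cell of each gene; at least 2% class II UMIs), kept these counts within 1.5 times.

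Of the values of named genes under alternatives, 2194 stayed within the counting interval of the reported value, 296 moved beyond it and 6 changed sign. The 2194 include 156 from the minimum of 20 UMIs, which cannot alter a ratio. Thinning to 500 UMIs kept 76 values within the interval, moved 76 and changed the sign of 4. Equal library weight kept 102 and moved 54. Against cDC1, Lyz2 was at a log2 ratio of -0.36 with 2 lectin UMIs and -0.37 with Cd209a required, which drops the cells with Clec10a alone. Against macrophages and thinned to 500 UMIs, Clec4d was at 0.66, Iigp1 at 0.51, Ifit3 at 0.30 and Havcr2 at -0.10, and the cause was not tested. With thinning left out, 31 of 49, 14 of 33 and 42 of 74 named genes met the conditions under every alternative against cDC1, monocytes and macrophages, and 40, 27 and 61 did wherever they had enough UMIs. Tap2 and Irf7 against cDC1 and Irf7 against monocytes were among those that did not. With 103 cells, genes such as Irf4, Sirpa and Zeb2 are limited by depth.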

Other observations

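Some of the genes that varied most among cDC2 were carried by single cells. Spp1, a secreted matrix protein, had 103 UMIs, of which 91.3% lay in 1 cell of library 1, and Mup7, a urinary protein gene of hepatocytes, had 395 UMIs with 71.4% in 1 cell of library 3. All 216 UMIs of the globin gene Hbb-bs lay in 1 cell of library 2. The neutrophil gene S100a9 had 96.3% of its 80 UMIs in 1 cell and the stromal gene Dcn 97.8% of its 46. Gm42418 varied most, had 19830 UMIs and was found in all 103 cells.

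Of 6 measured proliferation genes, none met the conditions between cDC2 and cDC1, and of 11 measured, 1 (Top2a) was higher in cDC2 than in C1q macrophages, with 8 of its 25 UMIs in 1 cell. Its log2 ratio was 0.64 without library 1 and 2.65 without library 2. Stmn1 was at 163 CPM in cDC2 and 283 CPM in cDC1.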
